A study of Mus musculus with 8 samples.

Results

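The genes described here are 9 regulators of the antiviral and interferon response: the RNA sensors Ifih1, Dhx58 and Tlr3, the interferon regulatory factors Irf1, Irf3, Irf7, Irf8 and Irf9, and the signal transducer Stat2. They were taken by name from a table of 24498 genes, and all 9 passed the filter used for testing, a mean of at least 10 normalized read counts over the 8 libraries. PolyA RNA was sequenced from dorsal hippocampi of C57BL/6J mice, all male and 10 to 12 weeks old, with 2 libraries in each of 4 groups: knockdown vector with training, knockdown vector without training, control vector with training and control vector without training. All mice had received an adeno-associated virus (AAV2/9) in the dorsal hippocampus 3 weeks before. The knockdown vector expressed a short hairpin RNA against Acss2, which encodes an acetyl-CoA synthetase, from the U6 promoter, together with EGFP from the CMV promoter. The control vector carried CMV-driven EGFP, and its name lists no hairpin. Loss of Acss2 and expression of the hairpin therefore cannot be told apart as the source of a difference between the vectors. Trained mice were given 3 trials of 6 minutes in an arena holding 3 objects and were killed 30 minutes later, and untrained mice were home cage controls. Nothing in the labels says whether libraries came from separate mice, so p-values measure the spread between libraries, which may be technical.

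Cells detect double-stranded RNA with Tlr3 in endosomes and with the helicases encoded by Ddx58 (RIG-I) and Ifih1 in the cytosol. These sensors lead to phosphorylation of Irf3 and Irf7, which switch on type I interferon genes. Secreted interferon then signals through Janus kinases to a complex that holds Stat2 and Irf9 and binds interferon-stimulated response elements (ISREs) in target promoters. Many sensors and factors of the pathway are themselves targets of that complex. Microglia, astrocytes and neurons can all respond to interferon in the brain.

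Promoter sequences from RefSeq (GRCm38.p6, 250 bases before to 50 from the annotated start) were matched for 8 of the 9 genes, all but Dhx58. They were searched on both strands for the core of the ISRE, GAAA and GAAA with any 2 bases (NN) between them, and for the letters bound by Stat dimers (the GAS element), TTCNNNGAA. The ISRE core was in 3.43% of all 32817 promoter windows of this length and the GAS letters in 8.29%. The matches among the 9 genes are shown because they are the letters that the factors described here are known to read, with the matched bases in capitals. The ISRE core began at position -222 of Stat2, on the reverse strand, and at position 33 of Ifih1, counting the first transcribed base as 1. The GAS letters began at position -90 of Irf1 and at positions -171 and -153 of Irf8. Irf1, Irf8 and Irf9 have 2 windows each, and positions are counted in the window that holds the match.
Stat2, chr10:128270256-128270305, + strand: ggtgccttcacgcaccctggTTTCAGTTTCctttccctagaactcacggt
Ifih1, chr2:62646206-62646233, - strand: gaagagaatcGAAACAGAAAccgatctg
Irf1, chr11:53769904-53769952, + strand: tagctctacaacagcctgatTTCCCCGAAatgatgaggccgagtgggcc
Irf8, chr8:120736167-120736233, + strand: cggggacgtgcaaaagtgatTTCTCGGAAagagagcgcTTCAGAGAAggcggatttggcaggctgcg
The windows of Irf3, Irf7, Irf9 and Tlr3 held neither run of letters. For Irf7, Irf9 and Tlr3 the RefSeq starts used lie inside the gene positions given below. The Tlr3 window (45410331 to 45410630) is wholly inside its gene, which reaches to 45411080. Both Irf9 windows begin past its gene's start at 55603571. Bases before these outer ends of Tlr3 and Irf9 were therefore not searched. The 250 bases before the RefSeq start of Irf7 are shown because Irf7 differed most between the vectors, and all are in lower case since neither motif was found. Part of them lies inside the Irf7 gene position, which reaches to 141266481.
Irf7, chr7:141266425-141266674, - strand: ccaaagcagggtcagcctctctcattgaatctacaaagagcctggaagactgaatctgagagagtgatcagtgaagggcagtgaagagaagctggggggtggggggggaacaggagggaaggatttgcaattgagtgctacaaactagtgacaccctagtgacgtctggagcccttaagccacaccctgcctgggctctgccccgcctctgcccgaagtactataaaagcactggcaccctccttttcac
A match, or none, describes these windows and not binding. Among 15 other known targets of the complex of Stat2 and Irf9, 12 had a window, and 6 of these held the ISRE core (Ifit1, Ifit3, Isg15, Rsad2, Bst2 and Ifitm3).

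The libraries differed in depth, and the depth set how firmly each gene could be read. The library KD.255 (knockdown, untrained) held 272456 reads in genes and KD.251 (knockdown, trained) held 1484318, while the other 6 held between 6537749 and 9863728. One read was worth 15.6 normalized read counts in KD.255, 2.88 in KD.251 and at most 0.659 elsewhere, so 3 reads, taken as the detection floor, came to 46.7, 8.65 and at most 1.98. Acss2, the target of the hairpin, had 25.6 and 57.7 normalized counts in trained and 25.0 and 15.6 in untrained knockdown libraries, against 87.4 and 67.5 in trained and 58.2 and 82.0 in untrained control libraries. The highest knockdown value, in KD.251, lay just under the lowest control value. It rests on 20 reads, with a 95% Poisson interval of 35.2 to 89.1 that spans all control values. The value in KD.255 is 1 read, under the floor, with an interval of 0.394 to 86.7, so that library cannot place Acss2. Markers of hippocampal neurons were detected in every group, with summed levels of 34000 to 45938 normalized counts in knockdown and 40325 to 52251 in control libraries. Choroid plexus markers, a sign of what else was dissected, summed to 261 to 1890 normalized counts in knockdown and 227 to 59393 in control libraries. Throughout, intervals and floors cover counting error only.

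Of the 9 genes, 8 had a mean level above that of the control libraries in the knockdown libraries, and Irf3 alone had a lower one. Irf7, Irf9, Ifih1 and Tlr3 were higher in all 4 knockdown libraries than in any of the 4 control libraries, which held for 2.28% of the 12681 genes tested. These are ranks of values, and some in the shallow libraries lie within counting error of the controls. In both deep knockdown libraries, KD.253 and KD.249, every one of the 9 genes other than Irf3 exceeded all 4 controls, against 10% of genes tested. In the 3 knockdown libraries other than KD.251, 6 of the 9 exceeded all controls, against 4.91%. The median log2 difference of the 9 genes was 1.04 by limma and 1.69 by edgeR, and over all genes tested it was -0.03 and -0.01. With limma on log2(normalized count + 1) and Benjamini-Hochberg adjustment over all genes tested, 1 of the 9 passed an adjusted p of 0.05 (Irf7), beside 0.103% of all genes. With edgeR on the recovered reads, 3 passed (Irf7, Ifih1 and Irf9), beside 0.962% of all genes in either direction and 0.915% as higher. With DESeq2 6 passed (Irf7, Ifih1, Irf9, Stat2, Dhx58 and Tlr3), beside 1.54%. Leaving out KD.251 gave 5 limma calls among the 9 (0.789% of all genes) and 8 edgeR calls (1.88%), and leaving out both shallow libraries gave 7 in limma (1.67%) and 7 in edgeR (1.83%). Leaving out any single library other than KD.251, the knockdown library nearest to the controls, gave no limma call among the 9 beyond Irf7. Leaving out both control libraries numbered above 260 gave 0 in limma (0%). "Rose" is used here for limma calls alone, and edgeR calls are named as such.

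**Figure D1:**
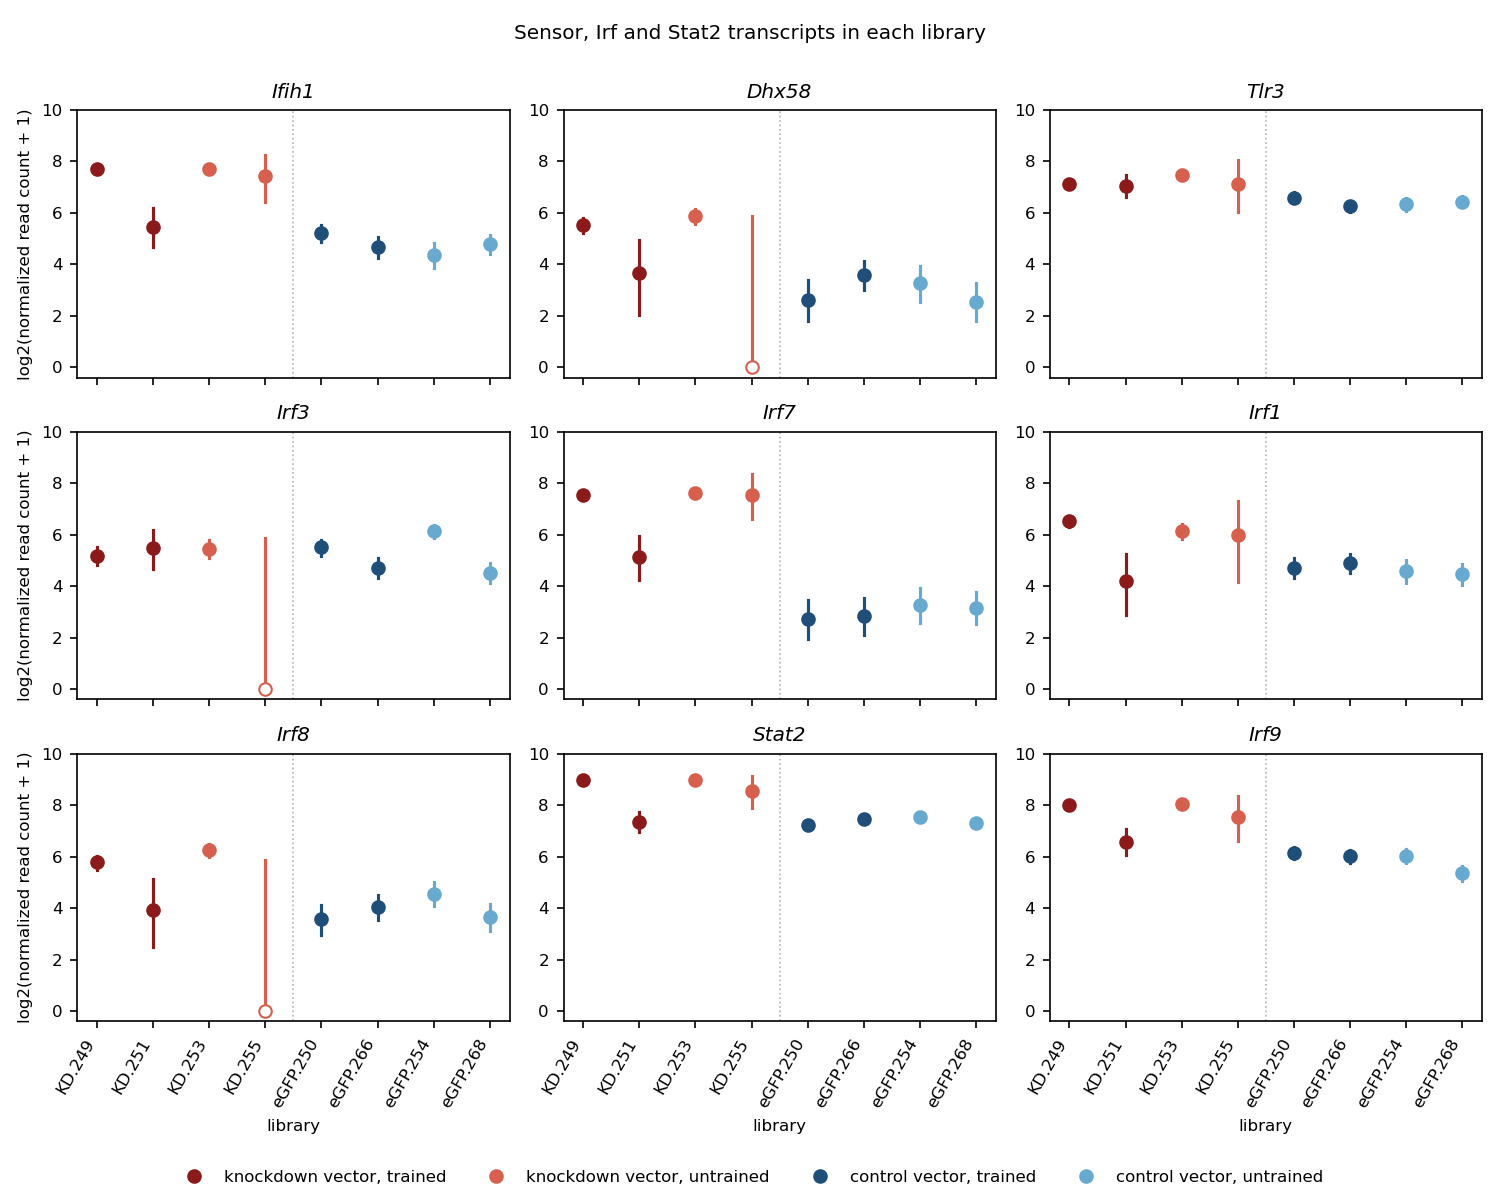
Log2(normalized read count + 1) of each of the 9 genes, 1 panel a gene, in each library, coloured by vector and training, with bars for the 95% Poisson interval of the reads and open markers for 0 reads. Irf7 lies between 186 and 195 normalized counts in 3 knockdown libraries, at 34.6 in KD.251, and under 9 in all 4 control libraries.

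Ifih1 encodes the sensor of long double-stranded RNA in the cytosol (chromosome 2, 62595798 to 62646255, GRCm38 here and for the other genes). It had 210 and 43.3 normalized counts in trained and 207 and 171 in untrained knockdown libraries, against 36.2 and 24.4 in trained and 19.8 and 26.6 in untrained control libraries. Every knockdown library was above every control, though KD.251 stood close to the controls and the other 3 far above them. The mean was 158 ± 78.4 (SD, n = 4) with the knockdown vector and 26.7 ± 6.91 (SD, n = 4) with the control vector, a ratio of 5.90. In limma the log2 difference was 2.32 (SE 0.472, adjusted p = 0.195), short of the threshold, while edgeR gave 2.60 with an adjusted p of 0.00573. Ifih1 stayed short in limma when any single library other than KD.251 was left out. Without KD.251 the limma difference was 2.90 and passed with an adjusted p of 0.00107.

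Dhx58 (chromosome 11, 100694884 to 100704271) encodes a helicase of the same family that lacks the signalling domains and modulates the other family members. It had 45.0 and 11.5 normalized counts in trained and 57.3 and 0 in untrained knockdown libraries, against 5.17 and 11.0 in trained and 8.72 and 4.88 in untrained control libraries. Both deep knockdown libraries were above all controls, and KD.251 exceeded the highest control by less than the worth of 1 read. The 0 reads in KD.255 have a 95% Poisson interval reaching to 57.4 normalized counts, so that library cannot place the gene. The limma log2 difference was 0.75 (SE 1.15, adjusted p = 0.925), and edgeR, which weighs the depth, gave 2.36 (adjusted p = 0.0522). DESeq2 called Dhx58, at 2.23 (adjusted p = 0.0132). Without both shallow libraries the limma difference was 2.68 and passed (adjusted p = 0.0119).

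Tlr3 (chromosome 8, 45395665 to 45411080), the endosomal sensor, was the most even of the 9 across knockdown libraries. It had 137 and 133 normalized counts in trained and 177 and 140 in untrained knockdown libraries, against 95.7 and 75.6 in trained and 79.7 and 86.0 in untrained control libraries. The groups did not overlap, and KD.251 was level with KD.255 and KD.249. The mean was 147 ± 20.6 (SD, n = 4) with the knockdown vector and 84.2 ± 8.74 (SD, n = 4) with the control vector, a ratio of 1.74. Neither limma (log2 difference 0.79, SE 0.171, adjusted p = 0.224) nor edgeR (0.83, adjusted p = 0.0522) called it, while DESeq2 did (0.83, adjusted p = 0.00744). The ratio of Ifih1 to Tlr3 within a library was 1.54 and 0.326 in trained and 1.17 and 1.22 in untrained knockdown libraries, against 0.378 and 0.323 in trained and 0.248 and 0.309 in untrained control libraries. The ratio was above every control in 3 knockdown libraries and within their range in KD.251. It is of reads per gene, with no correction for gene length.

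Irf3 and Irf7 are the factors that carry the sensors' signal to interferon genes. Irf3 is made constitutively and awaits phosphorylation, while Irf7 is made at a low level until interferon raises it. Irf7 (chromosome 7, 141262706 to 141266481) rose more than any other of the 9 genes. It had 186 and 34.6 normalized counts in trained and 195 and 187 in untrained knockdown libraries, against 5.69 and 6.22 in trained and 8.72 and 7.98 in untrained control libraries. All knockdown libraries were above all controls, with KD.251 the lowest of them. The 12 reads in KD.255 have a 95% Poisson interval of 96.4 to 326 normalized counts, and the 12 reads in KD.251 one of 17.9 to 60.5, which do not overlap. The mean was 151 ± 77.5 (SD, n = 4) with the knockdown vector and 7.15 ± 1.43 (SD, n = 4) with the control vector, a ratio of 21.1. The limma log2 difference was 3.96 (SE 0.476, adjusted p = 0.021) and that of edgeR 4.43 (adjusted p = 5.68e-04). The limma call was lost when KD.253, KD.249, eGFP.254, eGFP.268 or eGFP.250 was left out, with adjusted p between 0.0789 and 0.14 and log2 differences between 3.56 and 4.02, and it was also lost without both control libraries numbered above 260 (3.96, adjusted p = 0.209).

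Irf3 (chromosome 7, 44997648 to 45002848) was the exception among the 9. It had 35.3 and 43.3 normalized counts in trained and 42.8 and 0 in untrained knockdown libraries, against 44.5 and 25.4 in trained and 69.8 and 22.2 in untrained control libraries. The groups overlapped throughout, apart from the 0 reads in KD.255, whose 95% Poisson interval reaches to 57.4 normalized counts. The edgeR log2 difference was -0.07 (adjusted p = 1). The limma difference was -1.20 (SE 1.07, adjusted p = 0.873), and 0.09 without both shallow libraries (adjusted p = 0.961). The ratio of Irf7 to Irf3 was 5.28 and 0.80 in trained libraries and 4.55 in the untrained library KD.253 with the knockdown vector, against 0.128 and 0.245 in trained and 0.125 and 0.36 in untrained control libraries. This ratio was higher in all 3 knockdown libraries that have one than in any control.

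Stat2 and Irf9 belong to the complex that binds ISREs. Stat2 (chromosome 10, 128270559 to 128292849) had 500 and 162 normalized counts in trained and 507 and 373 in untrained knockdown libraries, against 148 and 175 in trained and 187 and 159 in untrained control libraries. KD.251 lay within the control range and the other 3 knockdown libraries above every control. The mean was 385 ± 161 (SD, n = 4) with the knockdown vector and 167 ± 17.1 (SD, n = 4) with the control vector. The limma log2 difference was 1.07 (SE 0.312, adjusted p = 0.529) and that of edgeR 1.26 (adjusted p = 0.054). DESeq2 called Stat2, at 1.22 (adjusted p = 0.00319). Stat2 stayed short in limma when any single library other than KD.251 was left out. Without KD.251 limma gave 1.45 (adjusted p = 0.00865).

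Irf9 (chromosome 14, 55603571 to 55610030), the DNA-binding part of the complex, had 259 and 95.2 normalized counts in trained and 261 and 187 in untrained knockdown libraries, against 69.8 and 64.1 in trained and 64.0 and 39.9 in untrained control libraries. All knockdown libraries, KD.251 included, were above the controls. The mean was 201 ± 78.4 (SD, n = 4) with the knockdown vector and 59.5 ± 13.3 (SD, n = 4) with the control vector, a ratio of 3.37. It passed in edgeR (log2 difference 1.83, adjusted p = 0.00862) and not in limma (1.66, SE 0.336, adjusted p = 0.195), and without KD.251 it passed in limma too (2.04, adjusted p = 0.00601). Leaving out any other single library left Irf9 short in limma. The ratio of Irf9 to Stat2 was 0.519 and 0.589 in trained and 0.514 and 0.50 in untrained knockdown libraries, against 0.470 and 0.367 in trained and 0.342 and 0.251 in untrained control libraries. The ratio was higher in every knockdown library than in any control. It carries no test, and its value in KD.255 rests on 12 and 24 reads.

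Irf1 and Irf8 are transcription factors best known from the response to interferon gamma, and Irf8 in the brain is a factor of microglia. Irf1 (chromosome 11, 53770014 to 53778374) had 91.6 and 17.3 normalized counts in trained and 69.2 and 62.2 in untrained knockdown libraries, against 25.3 and 28.7 in trained and 23.3 and 21.3 in untrained control libraries. KD.251 was the lowest of all 8 and the other 3 knockdown libraries the highest. The 95% Poisson interval was 6.35 to 37.7 for the 6 reads in KD.251 and 16.95 to 159 for the 4 reads in KD.255. Each spans all control values, so these 2 libraries cannot place Irf1. The limma log2 difference was 1.04 (SE 0.468, adjusted p = 0.873) and that of edgeR 1.38 (adjusted p = 0.139), and without KD.251 limma gave 1.60 (adjusted p = 0.0249). Leaving out any other single library left Irf1 short in limma. Irf8 (chromosome 8, 120736358 to 120756694) had 53.7 and 14.4 normalized counts in trained and 75.1 and 0 in untrained knockdown libraries, against 10.9 and 15.3 in trained and 22.7 and 11.5 in untrained control libraries. The deep knockdown libraries were above all controls, KD.251 within their range, and the interval of the 0 in KD.255 again reaches to 57.4. The limma log2 difference of 0.04 (SE 1.17, adjusted p = 0.998) did not hold its size: it was 1.50 without KD.255 (adjusted p = 0.482), 0.20 without KD.251 (adjusted p = 0.975) and 2.06 without both (adjusted p = 0.015), and edgeR over all 8 libraries gave 1.69 (adjusted p = 0.159).

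**Figure D2:**
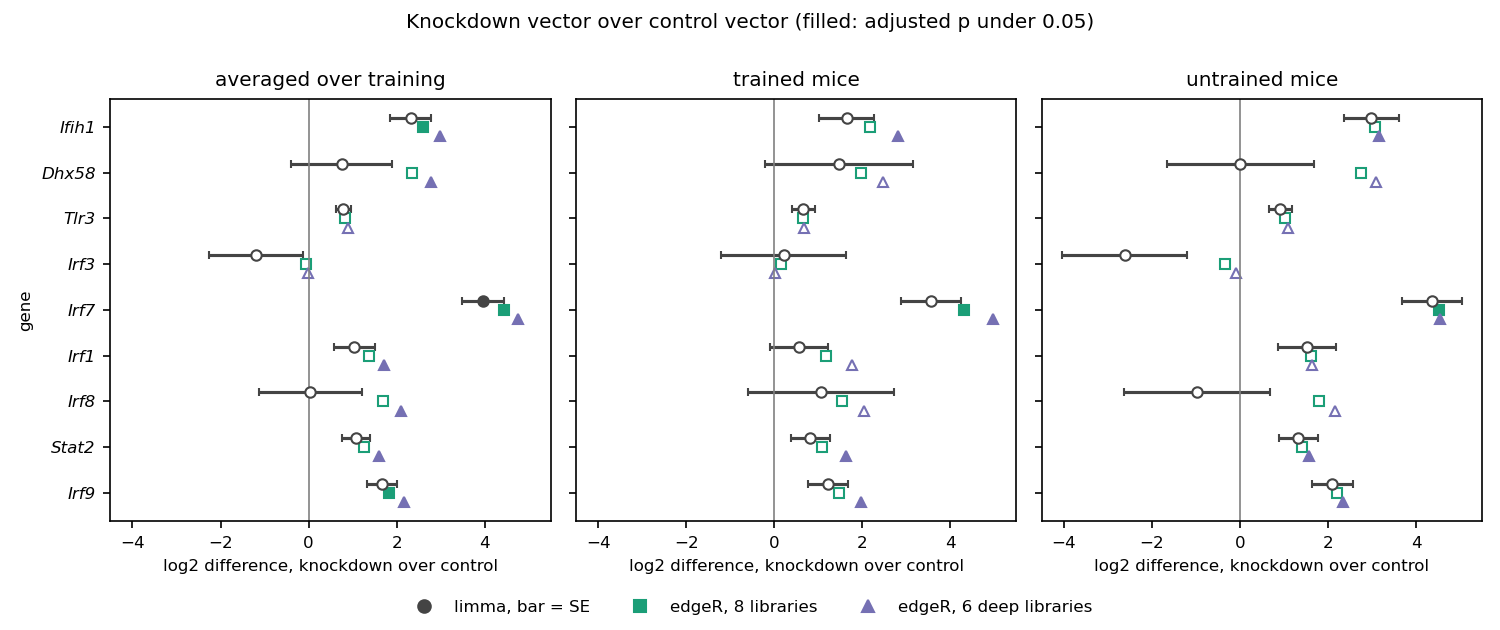
Log2 difference of the 9 genes, knockdown over control vector, averaged over training and in trained and untrained mice, from limma with its standard error, from edgeR with all 8 libraries and from edgeR with the 6 deep libraries, filled where the adjusted p was under 0.05. Irf7 has the largest difference in each panel, and Dhx58, Irf8 and Irf3, the genes with 0 reads in KD.255, have the widest limma errors.

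The order of the 9 genes by level changed between the vectors. Per kilobase of exon of the annotated coding transcripts, Stat2 was highest in control libraries at 38.1 ± 3.88 normalized counts per kilobase, followed by Irf9 at 19.2 ± 4.29, Tlr3 at 18.8 ± 1.95 and Irf3 at 18.5 ± 10.0, which did not differ beyond their spread (SD, n = 4 each). Irf1 at 7.39 ± 0.95, Ifih1 at 4.89 ± 1.26 and Irf8 at 4.39 ± 1.58 came next, the last 2 within their spread. Dhx58 at 3.09 ± 1.22 and Irf7 at 2.99 ± 0.60 were lowest and within their spread. In knockdown libraries Irf7 stood below Stat2 and Irf9 alone, at 63.0 ± 32.4 normalized counts per kilobase, level with Irf9 at 64.7 ± 25.3 and within the spread of Stat2 at 87.7 ± 36.7. Tlr3 (32.7 ± 4.60) and Ifih1 (28.8 ± 14.3) followed as neighbours within their spread, and then Irf1 (18.01 ± 9.34), Irf3 (13.9 ± 9.39), Dhx58 (11.8 ± 11.2) and Irf8 (10.4 ± 10.1), each also within the spread of the next. The means of Irf3, Dhx58 and Irf8 include the 0 reads of KD.255, so their order is not set. In KD.253 and KD.249 Irf3 had 19.6 and 16.1 normalized counts per kilobase, Dhx58 23.8 and 18.7, and Irf8 21.9 and 15.6. Exons of other annotated genes cover between 1.19% and 7.32% of the exon bases of Irf7, Irf9, Irf3, Irf1, Dhx58 and Tlr3, and since no source used here names the strand setting of the counting, reads there cannot be assigned.

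The libraries were not equal in the size of the difference. The median over the 9 genes of the log2 ratio to the control mean, on normalized counts + 1, was 1.85 in KD.249 and 0.57 in KD.251, both trained, and 2.12 in KD.253 and 1.15 in KD.255, both untrained. The median in KD.255 includes 3 genes with 0 reads, Irf3, Irf8 and Dhx58, which that library cannot place, so its size is not set. In the control libraries it was 0.04 and 0.02 in trained and 0.16 and -0.20 in untrained mice. KD.251 was thus the knockdown library nearest to the controls. It also had the highest Acss2 value of the knockdown libraries, from 20 reads, though KD.255, with 1 read of Acss2, cannot be placed. Its Tlr3, Irf9, Ifih1 and Irf7 were above all controls, as was Dhx58 by less than the worth of 1 read, while its Irf3, Stat2, Irf8 and Irf1 were not.

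**Figure D3:**
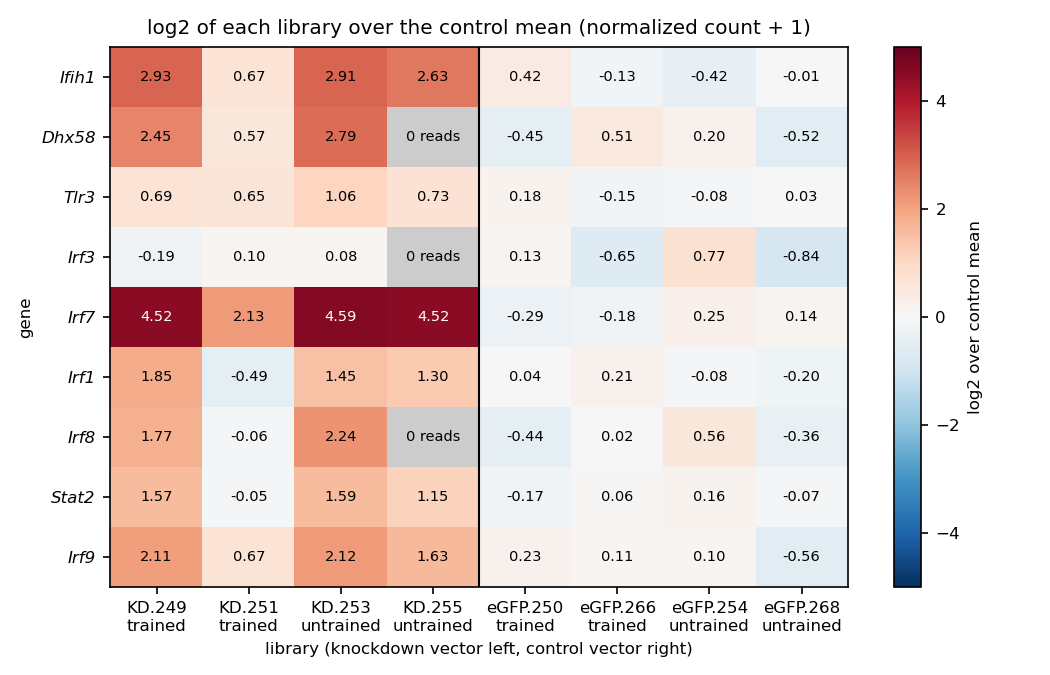
Log2(normalized count + 1) of each gene in each library minus that of the mean of the 4 control libraries, knockdown libraries left and control libraries right, with grey cells for 0 reads. KD.253 is above the control mean for all 9 genes and KD.249 for every gene other than Irf3, and KD.251 is furthest above it for Irf7.

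The knockdown difference was also taken within each training state. In trained mice Irf7 had a limma log2 difference of 3.56 (SE 0.685, adjusted p = 1) and Ifih1 of 1.65. In untrained mice Irf7 had 4.36 (SE 0.685, adjusted p = 0.268), Ifih1 2.98 and Irf9 2.10. In limma 0 of the 9 genes passed in trained mice, where 0.00789% of genes did, and 0 in untrained mice, where 0% did, although 4 and 6 of the 9 had an unadjusted p under 0.05. In edgeR Irf7 passed in both, with 4.32 in trained (adjusted p = 0.0474, beside 0.0315% of genes) and 4.53 in untrained mice (adjusted p = 0.0331, beside 0.181% of genes). DESeq2 called 2 of the 9 in trained mice (Irf7 and Ifih1, beside 0.26% of genes) and 3 in untrained mice (the same 2 and Irf9, beside 0.434%). Whether the knockdown difference depended on training was tested by the interaction, which called 0 of the 9 genes in limma, edgeR and DESeq2, with 0 at an unadjusted p under 0.05 in each. Irf3 and Irf8 passed it only when KD.253 was left out, which leaves KD.255, with 0 reads of either, to stand for untrained knockdown mice, and limma then called 710 of all 12681 genes.

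Training itself, averaged over the vectors, gave no call among the 9 genes in limma (0% of genes), edgeR (0%) or DESeq2 (0.0631%), and 0 of the 9 had an unadjusted p under 0.05 in any of the 3. The median log2 difference of the 9, trained over untrained, was -0.09, with 3 above 0. With the control vector, where depth was even, Irf7 had 5.69 and 6.22 normalized counts in trained and 8.72 and 7.98 in untrained libraries. These rest on 11 and 13 reads in trained and 15 and 18 in untrained libraries, and their 95% Poisson intervals overlapped. Irf1 lay the other way, at 25.3 and 28.7 in trained and 23.3 and 21.3 in untrained control libraries. So did Irf9, at 69.8 and 64.10 in trained and 63.97 and 39.9 in untrained control libraries. The rest of the 9 genes overlapped between trained and untrained control libraries.

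The rest of the pathway was described with 6 lists of genes, whose counts stand beside 0.103% of all genes called as higher by limma and 0.915% by edgeR. Among 9 other Irf and Stat genes, 5 were tested, and their median limma difference was 0.24. Irf5, a factor of myeloid cells, had a limma difference of 1.32 (adjusted p = 0.697; edgeR 1.56, adjusted p = 0.0734), Stat3 of 0.55 and Irf2 of 0.24, and Stat5b (-0.28) and Stat6 (-0.23) were below 0, none past either test. In edgeR Stat5b was at -0.24 and Stat6 at 0.15. DESeq2 over all 8 libraries called Irf5 alone of this list, beside 1.54% of all genes.

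Other sensors of nucleic acid included several with differences as large as that of Ifih1. Of 12 listed, 10 were tested, limma called 0 and edgeR called 6 as higher (0.915% of all genes) and 0 as lower, with a median limma difference of 2.12. Ddx58, which encodes RIG-I, had 231 ± 140 normalized counts (SD, n = 4) with the knockdown vector and 32.5 ± 4.58 with the control vector (SD, n = 4; edgeR log2 difference 2.73, adjusted p = 0.0102). The other 5 called by edgeR were Eif2ak2 (PKR, log2 difference 2.18), the oligoadenylate synthetases Oas1a (4.42) and Oas2 (4.32), Zbp1 (4.48) and Ifi204 (4.76). Tlr7, the endosomal sensor of single-stranded RNA, had an edgeR difference of 1.15, Tlr9 of 1.01, Mb21d1 (cGAS) of 0.83 and Aim2 of 0.35, none of which passed. In limma Tlr7 was at 0.95 and Aim2 at 0.002, while Tlr9 (-0.32) and Mb21d1 (-0.16) were below 0, so the tests differ in sign for these last.

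The genes that link sensors to transcription factors, and the interferons and their receptors, gave few calls. Of 13 adaptors and kinases 10 were tested, limma called 0 and edgeR 1, Trim25, the ubiquitin ligase that activates RIG-I (118 ± 35.2 normalized counts with the knockdown vector and 32.3 ± 7.71 with the control vector, SD, n = 4 each; edgeR log2 difference 1.91, adjusted p = 0.00504). Tbk1, the kinase of Irf3, had a limma difference of -0.01 and Myd88 one of 0.46. Of 17 interferons, receptors and Janus kinases 8 were tested and 0 called by limma or edgeR, with Ifngr1 at 0.50, Jak2 at 0.29 and Il10rb at -0.01 in limma. Ifna1, Ifna2, Ifna4, Ifna5, Ifnk and Ifne had no read in any library. Ifnb1 had 1 read, in KD.249, and Ifng had 1 read, in KD.251, so interferon transcripts were not measurable at this depth.

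Of 13 inhibitors of the pathway 9 were tested, limma called 0, and edgeR called Usp18 and Trim21 as higher. Usp18, which blocks the type I interferon receptor, had 53.8 ± 27.4 normalized counts (SD, n = 4) with the knockdown vector and 2.35 ± 1.19 with the control vector (SD, n = 4; edgeR log2 difference 4.51, adjusted p = 8.88e-04). Ptpn11 had a limma difference of -0.01. Known targets of the complex of Stat2 and Irf9 stood highest. All 15 listed targets were tested and had a limma difference above 0, as did 44.3% of all genes, and their median was 2.84. Limma called 5 of them (Ifit1, Ifit2, Ifit3, Rsad2 and Oasl2) and edgeR 11, in each case as higher, beside 0.103% and 0.915% of all genes. The limma count was 1 (Ifit3) without KD.253, KD.249 or eGFP.254, 3 without eGFP.266, 0 without eGFP.268, without eGFP.250 or without both libraries numbered above 260, 11 without KD.251 and 15 without both shallow libraries. Ifit3, which encodes an antiviral protein induced by interferon, had 670 ± 315 normalized counts (SD, n = 4) with the knockdown vector and 33.1 ± 12.8 with the control vector (SD, n = 4), and a limma difference of 4.21 (adjusted p = 0.00866). Ifit1 rose by 4.34, Oasl2 by 4.21, Rsad2 by 4.0 and Ifit2 by 2.85 on the limma log2 scale, and Sp100, at 0.68, had the smallest difference of the 15.

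**Figure D4:**
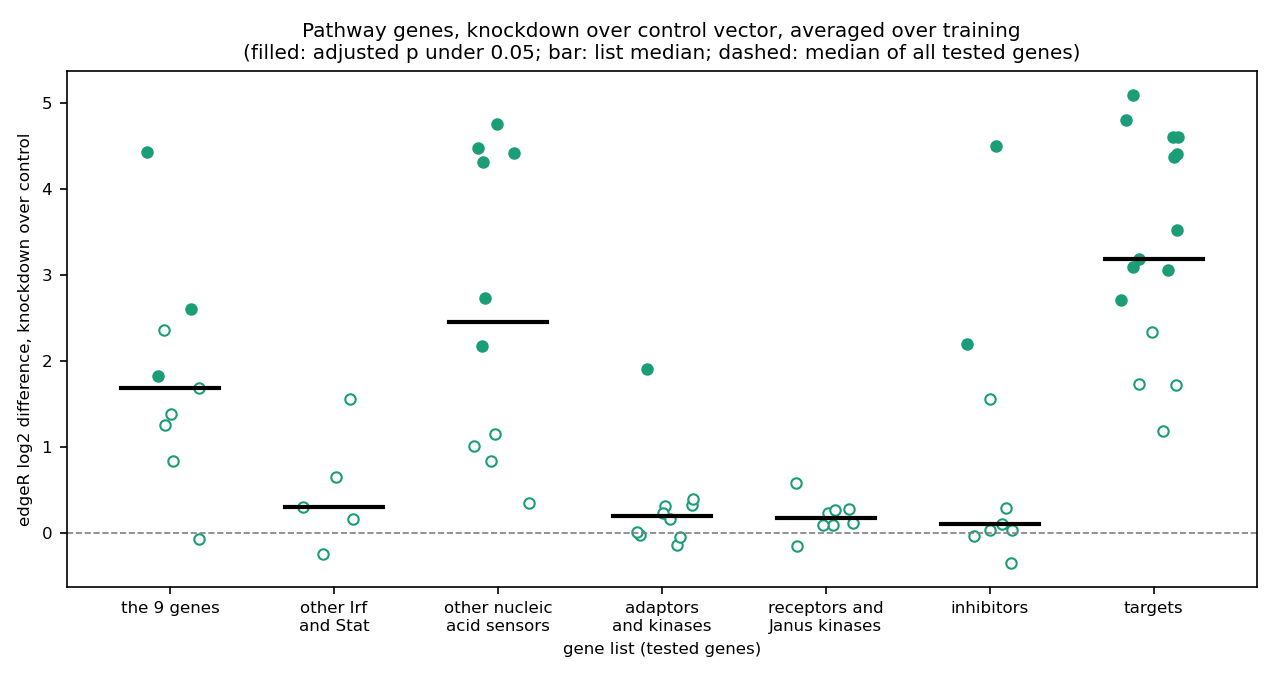
edgeR log2 difference, knockdown over control vector averaged over training, of each tested gene among the 9 and in the 6 pathway lists, filled where the adjusted p was under 0.05, with a bar at each list's median. The edgeR medians are 1.69 for the 9 genes, 2.45 for the other sensors and 3.19 for the targets, and lie between 0.09 and 0.20 for adaptors, receptors and inhibitors.

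Markers of immune cells were read in the same libraries, and no limma call fell among them. In bulk tissue, more cells of a type and more RNA per cell cannot be told apart. The summed level of 10 microglia markers was 1385 to 2019 normalized counts in knockdown and 1000 to 1190 in control libraries, and all 10 had a limma difference above 0, with a median of 0.77, of which C1qa passed in edgeR. The 9 listed markers of T and NK cells in the table summed to 5.77 to 62.2 normalized counts in knockdown and 2.22 to 4.65 in control libraries, and 0 of them reached the filter for testing. Both ends of the knockdown range come from shallow libraries, 62.2 from KD.255, where 1 read is worth 15.6, and 5.77 from KD.251. The deep knockdown libraries KD.253 and KD.249 had 39.5 and 56.8. KD.251 had the lowest sum of both lists among the knockdown libraries, as it had the lowest median of the 9 genes. Its T and NK sum was under the worth of 3 reads there, 8.65. Markers of monocytes and other blood myeloid cells summed to 31.7 to 142 in knockdown and 26.2 to 39.8 in control libraries, mostly Lyz2, and S100a8 had no read. Astrocyte markers summed to 9098 to 11711 in knockdown and 8597 to 8991 in control libraries, with a limma difference of 0.96 for Gfap and 0.52 for Aqp4, 3 of 6 above 0 and a median of -0.02. Gja1 was at 0.03, and Aldh1l1 (-0.07), Slc1a3 (-0.09) and Aldoc (-0.29) were below 0. Endothelial markers summed to 518 to 778 in knockdown and 605 to 713 in control libraries, and oligodendrocyte markers to 14997 to 25209 in knockdown and 9925 to 21270 in control libraries. The 7 markers of B cells and plasmacytoid dendritic cells summed to 3471 to 3935 in knockdown and 3047 to 3713 in control libraries, mostly Tcf4, which neurons also express. The part of any of these cells in the levels of the 9 genes was not tested. Irf8, set against the microglia sum of its library, came to 0.0286 and 0.0104 in trained and 0.0372 and 0 in untrained knockdown libraries, against 0.0102 and 0.0153 in trained and 0.0198 and 0.00969 in untrained control libraries.

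The genes whose profiles over the 8 libraries were nearest to those of the 9, by the root mean square difference of centred log2 values over 12681 genes, were as follows. Irf7 was nearest to Pyhin1 (0.257) and Usp18 (0.305), and Ifih1 to Samd9l (0.148) and Herc6 (0.212). Irf9 was nearest to Trim25 (0.156), Irf1 to Fyb (0.198) and Stat2 to Lcp1 (0.150) and Gfap (0.157). Tlr3 was nearest to Oaf (0.152) and Trak2 (0.177). For Dhx58, Irf8 and Irf3 the nearest genes were Tap1 (0.324), Mki67 (0.378) and Cnppd1 (0.253), which share with them 0 reads in KD.255, so that value enters the likeness.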

How the data were processed

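PolyA RNA from the dorsal hippocampus was prepared with the ScriptSeq v2 kit and read on a NextSeq 500 instrument, as the labels' protocols state. The submitters' processing notes name bcl2fastq 02.14.01.07, STAR 2.3.0, HTSeq 0.6.1, DESeq and bedtools, with build mm10. No source used here names the annotation or strand setting. The authors' deposited signal is a table of gene read counts divided by 1 factor per library, called normalized read counts here. In each library 100% of values were whole multiples of the smallest (relative tolerance 1e-06), so reads were recovered from them. Column names give the group of each library and no replicate number. Between 34.5% and 39.5% of reads were in 5 entries that name no gene, which were left out.

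The main test was limma 3.58.1 with a trend on log2(value + 1), with a pseudocount of 1, for 12681 genes with a mean of at least 10, p-values being adjusted by Benjamini-Hochberg. Comparisons averaged over training or vector came from an additive model, the others from the 4 group means. edgeR 4.0.16 (quasi-likelihood) and DESeq2 1.42.0 on the recovered reads, other scaling, pseudocounts and filters, and leaving out libraries were alternatives. The code was tested on simulated data. The labels list the 2 libraries of each group as separate samples, and each counted as 1. Their counts differed by more than counting noise (chi-square per degree of freedom 2.16 to 36.0), which library preparation can also give, so they were not taken for repeat deposits of 1 library. Gene positions are from GENCODE release 21 for mouse. The genes and lists were chosen with earlier results of these data known. Of the pathway lists, the text names each tested gene of the first 2, and of the others those past limma's threshold, the 2 with the largest difference and the 1 with the smallest. One gene of the first list is not reported here. Others named from these lists are those called by edgeR, without reads or with a motif, and were named after their values were seen. Depth per library limits precision as given in the report.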

Additional observations from a re-analysis of the deposited data

Results flagged for a closer look

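Within the 4 libraries of each vector, the gap of the highest or lowest library to its nearest neighbour was set against the whole range, for each of the 9 genes, and compared with Dixon's critical value at 95%. This flags about 1 in 20 groups by chance. Irf7 in KD.251 was low among the knockdown libraries, at 34.62 normalized counts with the other 3 between 186 and 195, and the gap was 0.945 of the range. Tlr3 in KD.253 was high among the knockdown libraries, at 177.3 normalized counts with the other 3 between 133 and 140, and the gap was 0.837 of the range. KD.251 had the second lowest depth, the highest Acss2 value and the lowest microglia marker sum of the 4 knockdown libraries. Its Acss2 value rests on 20 reads and that of KD.255 on 1. The part of each in the Irf7 value was not tested.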

How the results depend on the processing

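The number of the 9 genes called for the knockdown vector, averaged over training, was 1 in limma, 3 in edgeR, 6 in DESeq2, 7 without both shallow libraries (KD.255 and KD.251), 0 without both libraries numbered above 260, and 0 to 5 when 1 library was left out. Alternatives chosen after seeing the data gave 7 (edgeR without both shallow libraries) and 8 (edgeR without KD.251). In untrained mice limma called 0, edgeR 1, DESeq2 3, limma without both shallow libraries 3, edgeR without them 4, edgeR without KD.251 4, and leaving out 1 library 0 to 4 (4 without KD.253, where 1293 of 12681 genes were called, 1147 of them as lower, and Irf3 and Irf8 are 2 of the 4, both lower; 2 without KD.249 and 2 without KD.251). In trained mice these were 0, 1, 2, 3, 4, 4 and 0 to 1 (1 without KD.251). The interaction gave 0 to 2 when 1 library was left out, the 2 being Irf3 and Irf8 without KD.253, when limma called 710 of 12681 genes, 691 of them as higher, and the untrained knockdown group rests on KD.255, which has 0 reads of both, and is assumed to vary like the other groups. TMM scaling, pseudocounts of 0.5 and 10, every gene with any read and a mean of at least 50 moved none of these counts by over 1.5 times. No paired analysis was possible because the deposited columns carry no replicate number.

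Signs changed mainly for the 3 genes with 0 reads in KD.255. The averaged log2 difference of Irf8 was -0.18 with a pseudocount of 0.5, -0.074 without both libraries numbered above 260, and -1.0 to 1.50 leaving out 1 library. That of Dhx58 was -0.28 to 2.07 leaving out 1 library, and that of Irf3 0.092 without both shallow libraries and -2.01 to 0.17 leaving out 1. In untrained mice Irf8 was -0.98 in limma, 1.79 in edgeR, 1.55 in DESeq2, 0.14 with a pseudocount of 10, 2.14 without both shallow libraries, 2.16 in edgeR without them, 1.79 in edgeR without KD.251, and -4.11 to 2.14 leaving out 1 library. Dhx58 there was 0.02 in limma, -0.39 with a pseudocount of 0.5, -0.35 without both libraries numbered above 260 and -2.92 to 2.95 leaving out 1, and Irf3 was 0.11 without both shallow libraries and -5.34 to 0.11 leaving out 1. In trained mice Irf3 was -0.18 without both libraries numbered above 260 and -0.18 to 0.61 leaving out 1, and Irf1 was -0.61 to 1.73 leaving out 1. Irf7, Ifih1, Irf9, Stat2 and Tlr3 stayed above 0 under every alternative run in these 3 comparisons. Without KD.249, however, Stat2 in trained mice rests on KD.251, whose 162 normalized counts lay between the trained controls at 148 and 175. Depth limits Dhx58, Irf3 and Irf8 most, since 1 read in KD.255 is worth 15.6 normalized counts.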
